A study of Mus musculus with 11 samples.

Results

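Dnmt3a1, the long isoform of the DNA methyltransferase Dnmt3a, had been put back into mouse embryonic stem (ES) cells that lack the 3 enzymes Dnmt1, Dnmt3a and Dnmt3b (TKO). This line, TKO+Dnmt3a1, had 2 RNA-seq libraries and its parent TKO had 1, so that 3 of the series' 11 libraries make up the comparison, chosen by the genotype in the labels. All lines came from J1, an ES cell line of strain 129S4/SvJae, and were kept on irradiated mouse embryonic fibroblasts with serum and LIF. For comparison the text uses wild-type J1 (WT, 1 library), TKO+Dnmt3a2 (TKO with the short isoform put back, 2 libraries), DKO (without Dnmt3a and Dnmt3b but with Dnmt1, 1 library) and DKO+Dnmt3a1 (1 library). TKO with Dnmt3b1 put back (1 library) is quoted for some genes. The labels do not say what promoter drove the enzyme put back, whether a line is 1 clone, or whether its 2 libraries came from separate cultures. The p-values therefore measure only the spread between libraries, which may be technical, and a clonal difference cannot be told apart from the genotype. Of 24016 genes in the deposited table, 14229 reached 1 RPKM (reads scaled to transcript length and to library depth) in at least 1 of the 11 libraries and were tested. A gene that reached 1 RPKM only in TKO can stand only below TKO, and such genes are kept in the counts.

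Dnmt3a and Dnmt3b place methyl groups on CpG sites that carry none, and Dnmt1 copies the marks to the new strand after each replication. In cells without Dnmt1 a methyltransferase put back has to set marks anew in every cell cycle. Methylated CpG-rich promoters of germline genes, and the methylated allele of imprinted genes, are usually silent, and ES cells without any of the 3 enzymes still grow and keep their pluripotency factors.

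Transcripts of Dnmt3a stood higher in the line with the enzyme put back. Dnmt3a read 4.24 RPKM in TKO and 39.4 and 34.2 RPKM in TKO+Dnmt3a1 replicates 1 and 2, against 22.7 RPKM in WT. Both libraries stood above TKO and WT, and the log2 difference from TKO was 2.97 ± 0.39 (SE; limma, Benjamini-Hochberg adjusted p = 0.293). The value does not separate Dnmt3a1 from Dnmt3a2 or from a transcript left by the knockout allele. TKO with Dnmt3b1 put back also read above TKO in Dnmt3a, at 10.2 RPKM. Dnmt1 stayed at the level of the parent, at 6.73 RPKM in TKO and 8.49 and 7.27 RPKM with Dnmt3a1, against 71.0 RPKM in WT. Dnmt3b, also knocked out, still gave transcripts: 45.3 RPKM in TKO and 28.9 and 20.9 RPKM in TKO+Dnmt3a1, against 25.0 RPKM in WT, so that it does not check the genotype. Dnmt3l, a cofactor of Dnmt3a without activity of its own, stood at 391 RPKM in TKO and at 275 and 338 RPKM with Dnmt3a1. The ES cell markers were all present: Pou5f1 read 454 RPKM in TKO and 602 and 559 RPKM with Dnmt3a1, and the lowest of the 8 markers, Sall4, read 45.9, 56.3 and 51.5 RPKM.

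The spacing of the RPKM values put the depth at 25.8 M reads in TKO and 22.3 and 32.8 M reads in TKO+Dnmt3a1, and at 21.7 to 32.5 M reads in the other 8 libraries. At 22.3 M reads a single read in a transcript of 2 kb is worth 0.0224 RPKM. Summed over the 31 fibroblast markers tested, which the feeder cells express, the level was 813 RPKM in TKO and 928 and 764 RPKM in TKO+Dnmt3a1. Over the 17 macrophage markers it was 59.2, 81.5 and 61.1 RPKM, and none of the tested markers of either list was at 0 in all 3 libraries.

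With Dnmt3a1 put back, no gene passed limma's test against TKO: 0 were called higher (0.0%) and 0 lower (0.0%) of 14229, while 1369 had an unadjusted p under 0.05. After Benjamini-Hochberg adjustment the lowest p was 0.126. Size was therefore described without a test, on the log2(RPKM + 0.5) scale, which makes the fold of low genes smaller. In both libraries 106 genes stood above TKO by 1 or more, that is 2-fold (0.745%), and 165 stood below it by as much (1.16%). This split depends on the scaling: quantile normalization gave 131 higher and 121 lower, scaling by median ratios 120 and 134, and 118 and 116 stood apart with the chromosome medians of each library removed. Counted in replicate 1 alone these were 267 higher and 466 lower, and in replicate 2 alone 270 and 340. The replicates themselves differed by 1 or more in 349 genes (2.45%). Above TKO by any amount in both libraries were 4578 genes (32.2%), below it 6180 (43.4%). Across genes, which are not independent replicates, the 2 libraries correlated at r = 0.983 with each other and at 0.973 and 0.975 with TKO. The lower genes had a median of 4.18 RPKM in TKO and of 1.02 and 1.18 RPKM with Dnmt3a1, and the higher genes 0.976 RPKM and 3.87 and 3.98 RPKM. These levels describe the sets only, since the same 3 libraries chose them. Small RNA genes, read from few fragments in a library of long polyadenylated RNA, made up 32 of the 106 (30.2%) and 26 of the 165 (15.8%), against at most 3.85% of all genes tested. That last share was counted by name and takes in coding genes whose names start with Rn, such as Rnf2.

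**Figure D1:**
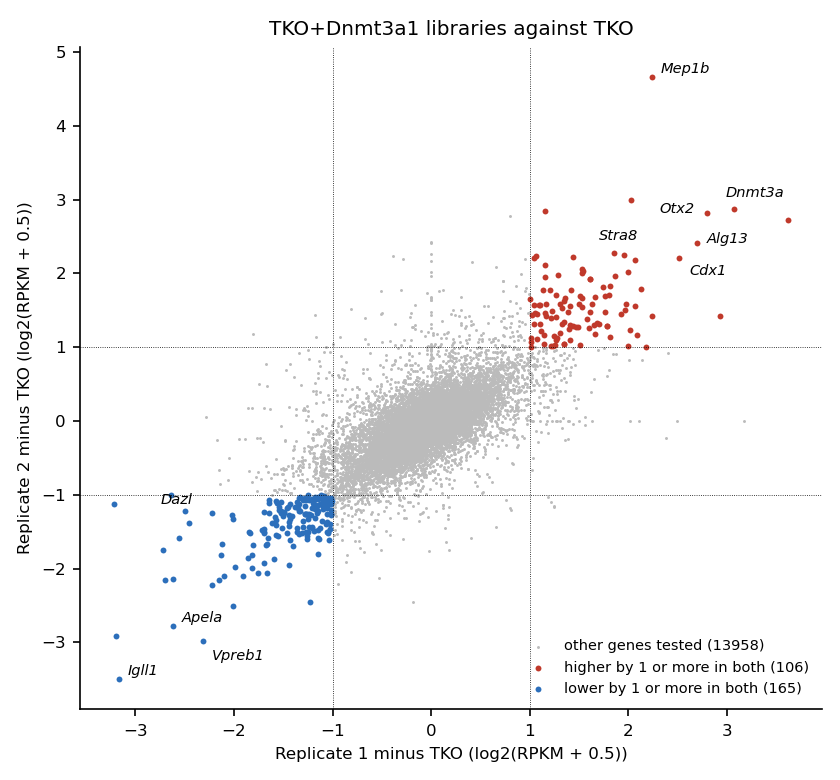
Each point is 1 of the 14229 genes tested, with its difference from the TKO library in TKO+Dnmt3a1 replicate 1 (x axis) and replicate 2 (y axis), both in log2(RPKM + 0.5). Red marks the 106 genes at 1 or more above TKO in both libraries and blue the 165 genes at 1 or more below it, with Otx2 and Alg13 far to the upper right and Igll1 and Apela far to the lower left; both axes share the same TKO library.

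Of the genes that stood higher, Otx2 and Alg13 read close to WT. Otx2, a homeobox factor of the early epiblast and forebrain, read 0.585 RPKM in TKO, 7.06 and 7.14 RPKM in TKO+Dnmt3a1 and 7.60 RPKM in WT. The 2 libraries nearly coincide, and that both stand above TKO follows from the rule that named the gene (log2 difference 2.81 ± 0.24 SE, limma adjusted p = 0.150). Alg13, a subunit of the transferase that builds the lipid-linked sugar for N-glycosylation, read 8.78 RPKM in TKO, 59.5 and 49.0 RPKM with Dnmt3a1 and 66.0 RPKM in WT (2.55 ± 0.19, SE; limma adjusted p = 0.126). Both genes passed when the filter was a mean of at least 1 RPKM over the libraries, with limma adjusted p values of 0.0454 for Otx2 and 0.0323 for Alg13. Over all alternatives run these ranged from 0.0454 to 0.967 for Otx2 and from 0.0203 to 0.967 for Alg13.

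Developmental regulators followed. Cdx1, a caudal homeobox gene of the primitive streak, read 0.936 RPKM in TKO and 7.71 and 6.15 RPKM with Dnmt3a1, next to 5.72 RPKM in WT. Foxn4, a forkhead factor of retinal progenitors, read 1.13 RPKM in TKO and 6.34 and 6.91 RPKM with Dnmt3a1. Stra8, which germ cells switch on before meiosis, read 26.5 RPKM in TKO and 105 and 129 RPKM with Dnmt3a1. Both Stra8 libraries stood far above WT, which read 28.5 RPKM, and the gene lies on chromosome 6, where most genes read lower than in TKO. TKO+Dnmt3a2 also read above TKO in these genes, against the same TKO library by which they were chosen. It held 3.97 and 6.275 RPKM of Cdx1, 3.22 and 2.76 RPKM of Foxn4, and 62.5 and 80.7 RPKM of Stra8. Mep1b, a metalloprotease gene of gut and kidney, read 0.385 RPKM in TKO but 3.69 and 21.9 RPKM in the 2 libraries, a gap between replicates wider than that from TKO to replicate 1. The remaining genes of the 10 rest on few reads. Snora34, a small nucleolar RNA, had 0 reads in TKO and about 17.4 and 12.7 reads with Dnmt3a1. Mir3078 had 0 reads against 3.0 and 9.9, and Mir7083 had 0 against 2.0 and 3.0. None of these passed limma's test, with adjusted p values from 0.260 (Stra8) to 0.482 (Mir3078).

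The genes that stood furthest below TKO were low in WT, apart from Apela. Igll1 and Vpreb1 encode the surrogate light chain of the pre-B-cell receptor. Igll1 read 6.72 RPKM in TKO and 0.306 and 0.139 RPKM with Dnmt3a1, and was listed at 0 in WT (log2 difference −3.33 ± 0.32, SE; limma adjusted p = 0.213). Vpreb1 read 6.86 RPKM in TKO, 0.981 and 0.431 RPKM with Dnmt3a1 and 0.318 RPKM in WT. Both lie on chromosome 16, where the median gene also read lower. Pramel6 and Pramel7, neighbouring genes on chromosome 2 of the preimplantation embryo, read 6.11 and 4.77 RPKM in TKO. With Dnmt3a1, Pramel6 read 0.575 and 0.995 RPKM and Pramel7 0.309 and 0.678 RPKM. WT held 0.138 and 0.049 RPKM of them, and as near copies they may share reads. Tnnt3, the troponin T of fast skeletal muscle, read 4.77 RPKM in TKO and 0.810 and 0.428 RPKM with Dnmt3a1. That both libraries lay below TKO in each of these genes follows from the rule that named them. TKO+Dnmt3a2 and TKO with Dnmt3b1 put back also read below TKO in each of them, against the same TKO library by which the genes were chosen. Igll1 read 0.651 and 0.886 RPKM with Dnmt3a2 and 0.839 RPKM with Dnmt3b1. In the same order Vpreb1 read 1.76, 2.15 and 1.42 RPKM, and Pramel6 1.30, 1.12 and 2.66 RPKM. Pramel7 read 0.817, 0.964 and 2.10 RPKM, and Tnnt3 1.37, 2.05 and 2.035 RPKM. Mir7000, Mir7026 and Mir5129 had 3.0 reads each in TKO and 0 in both libraries, which is too few for a fold.

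Apela, which encodes a secreted peptide ligand of the apelin receptor, had another pattern. It read 39.3 RPKM in TKO and 38.3 RPKM in WT, and 6.01 and 5.32 RPKM with Dnmt3a1, while TKO and WT were alike in level. TKO+Dnmt3a2, at 11.6 and 9.72 RPKM, and TKO with Dnmt3b1 put back, at 8.52 RPKM, also stood below the same TKO library. The log2 difference from TKO was −2.69 ± 0.20 (SE; limma adjusted p = 0.126), and with the filter at a mean of 1 RPKM it passed with an adjusted p of 0.0323 (0.0203 to 0.967 over all alternatives run). Apela lies on chromosome 8, whose median was also lower with Dnmt3a1.

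**Figure D2:**
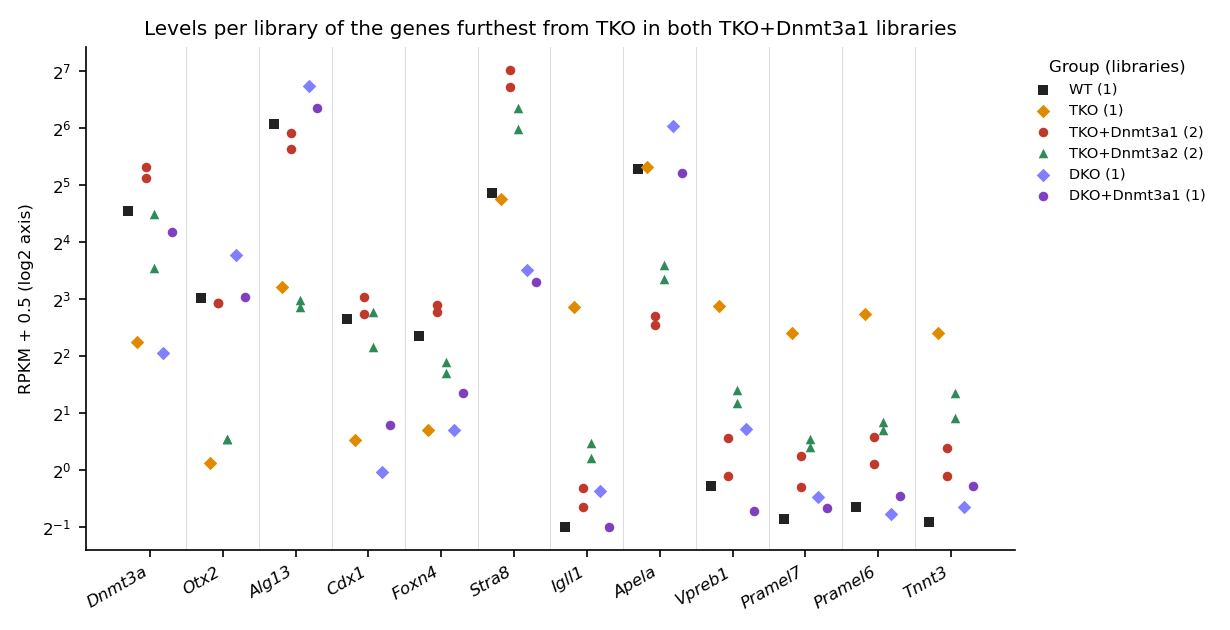
The y axis gives RPKM + 0.5 on a log2 axis for 12 of the genes named, and each symbol is 1 library of WT, TKO, TKO+Dnmt3a1, TKO+Dnmt3a2, DKO or DKO+Dnmt3a1. The TKO+Dnmt3a1 circles lie apart from the TKO diamond in every gene, since the genes were chosen by that gap. They lie near the WT square for Otx2, Alg13 and Cdx1, above it for Stra8 and below it for Apela.

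Since Dnmt3a1 acts on CpG sites, the promoters of these genes are shown by their CpG sites. Printed are the 250 bases before the annotated start, 5′ to 3′ on the gene's strand, with each CG in capitals, from RefSeq on GRCm38.p6. The set holds the higher genes Alg13 (chrX:144317716-144317965, plus strand) and Foxn4 (chr5:114273762-114274011, minus strand), and the lower genes Apela (chr8:65037337-65037586, minus strand), Pramel6 (chr2:87506315-87506564, plus strand) and Igll1 (chr16:16863986-16864235, minus strand).
Alg13: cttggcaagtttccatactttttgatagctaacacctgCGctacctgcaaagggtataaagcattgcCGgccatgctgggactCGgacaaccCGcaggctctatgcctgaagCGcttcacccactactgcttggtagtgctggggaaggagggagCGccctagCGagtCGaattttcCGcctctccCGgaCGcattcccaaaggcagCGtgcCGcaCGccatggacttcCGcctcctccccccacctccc
Foxn4: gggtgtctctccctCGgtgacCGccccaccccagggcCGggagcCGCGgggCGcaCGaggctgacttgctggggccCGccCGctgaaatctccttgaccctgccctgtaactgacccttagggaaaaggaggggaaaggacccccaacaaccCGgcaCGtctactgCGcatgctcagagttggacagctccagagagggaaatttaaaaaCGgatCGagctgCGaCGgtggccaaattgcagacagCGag
Apela: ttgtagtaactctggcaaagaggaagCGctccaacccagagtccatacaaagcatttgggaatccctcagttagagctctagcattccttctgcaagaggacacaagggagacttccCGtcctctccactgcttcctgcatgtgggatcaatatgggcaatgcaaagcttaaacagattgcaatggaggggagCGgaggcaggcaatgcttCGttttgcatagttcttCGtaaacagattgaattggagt
Pramel6: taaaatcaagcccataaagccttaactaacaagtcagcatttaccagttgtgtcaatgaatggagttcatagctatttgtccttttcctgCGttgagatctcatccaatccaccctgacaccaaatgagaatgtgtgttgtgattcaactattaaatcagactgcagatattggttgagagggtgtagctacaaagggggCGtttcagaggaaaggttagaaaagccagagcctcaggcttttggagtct
Igll1: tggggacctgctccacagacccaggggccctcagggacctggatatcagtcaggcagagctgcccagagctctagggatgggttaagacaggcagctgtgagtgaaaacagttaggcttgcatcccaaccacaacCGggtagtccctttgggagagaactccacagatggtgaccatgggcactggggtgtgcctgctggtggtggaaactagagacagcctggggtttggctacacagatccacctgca
These are the genes with the most CG among those named in each direction that have a window, Dnmt3a left aside and Vpreb1 tied with Igll1, and they do not stand for the higher and lower genes at large. In these 250 bases Alg13 holds 15 CG and Foxn4 17, against 5 in Apela, 2 in Pramel6 and 1 in Igll1. With the 50 bases after the start the counts were 21, 22, 7, 3 and 2. Among the other named genes Vpreb1 held 2, Pramel7 1 and Stra8 10 in this window of 300 bases, and Otx2 held 6 at 1 of its 4 listed starts. The letters CG, the only motif searched (its own reverse complement, so that both strands are covered), occur at least once in 99.5% of the windows of the genes tested. In 81.5% they occur 10 times or more, and in 7.78% fewer than 5 times. A window was matched for 48 of the 106 higher genes (45.3%), 100 of the 165 lower genes (60.6%) and 10932 of all genes tested (76.8%). Among the matched genes the median was 9 CG for the higher and 17 for the lower set, an order opposite to that of the genes printed, and 20 for all genes. With under 80% matched, a test of CpG content between these sets is void and none was made. Methylation itself was not measured in these libraries.

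Whole chromosomes read lower than in TKO. The median gene of chromosome 6 stood at −0.52 and −0.41 in replicates 1 and 2, that of chromosome 8 at −0.40 and −0.44, that of chromosome 16 at −0.34 and −0.36, and that of chromosome 12 at −0.23 and −0.25, all as log2 differences from TKO. For all genes the medians were −0.05 and −0.04. Chromosome 3 stood at −0.14 and −0.15, and chromosome 11 at −0.30 in replicate 1 but 0.05 in replicate 2. The other 13 autosomes and X lay between −0.09 and 0.08. Against WT the medians of chromosomes 6, 12 and 16 were close to those of other chromosomes, at −0.06 and 0.08, 0.04 and 0.01, and 0.13 and 0.11. On chromosome 8 the TKO+Dnmt3a1 libraries stood below WT too, at −0.35 and −0.37, and on chromosome 11 above it, at 0.20 and 0.55. The TKO parent itself stood above WT on chromosomes 6, 11, 12 and 16, at 0.48, 0.52, 0.27 and 0.49. Its median was 0.23 above WT on chromosome 3 and 0.06 on chromosome 8. Chromosomes 6, 8, 12 and 16 hold 16.5% of the genes tested, 68 of the 165 lower genes (41.2%) and 14 of the 106 higher ones (13.2%). With 1 TKO library the line and the genotype cannot be told apart.

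**Figure D3:**
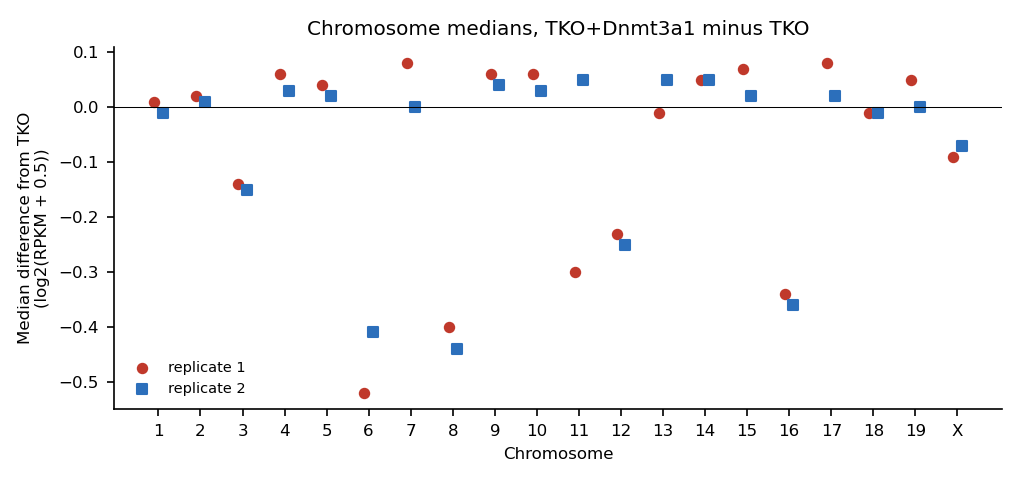
For each chromosome (x axis) the points give the median over its tested genes of the difference from TKO, in log2(RPKM + 0.5), with a circle for TKO+Dnmt3a1 replicate 1 and a square for replicate 2. Chromosomes 6, 8, 12 and 16 lie at or below −0.23 in both libraries, and on chromosome 11 the libraries part, at −0.30 and 0.05.

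In a bulk culture, fewer cells of a type and less RNA per cell cannot be told apart, which holds for all lists of lineage genes. For the primitive endoderm, the extraembryonic layer that lines the blastocoel, 18 of 21 tested members read below TKO in both libraries and 0 above (medians −0.96 and −0.57, against 43.4% of all genes below). Among the 18 is Foxa1, which reached 1 RPKM in TKO alone (1.83 RPKM), so that the filter fixed its side. The same list differed from TKO+Dnmt3a2 by a median of −0.03 and stood above WT by a median of 0.88. Of its defining factors Gata4 read 6.40 RPKM in TKO and 2.72 and 4.15 RPKM with Dnmt3a1, Gata6 7.30 and 2.45 and 5.43 RPKM, and Sox17 2.19 and 0.403 and 0.767 RPKM, next to 2.79, 1.84 and 0.148 RPKM of the 3 genes in WT. Of its other members, Dab2, an endocytic adaptor, read 12.2 RPKM in TKO and 4.44 and 5.44 RPKM with Dnmt3a1. Lama1, a laminin chain, read 22.3 RPKM in TKO and 9.37 and 10.4 RPKM, and Cubn, an endocytic receptor, 7.61 RPKM and 1.88 and 3.71 RPKM. Cited1, a transcriptional coactivator, went furthest, from 10.7 RPKM in TKO to 2.30 and 3.98 RPKM. Elsewhere than on chromosomes 6, 8, 12 and 16, 14 of 16 members lay below TKO in both libraries. The exceptions included Apoe, at 240 RPKM in TKO and 406 and 218 RPKM with Dnmt3a1. No member passed limma's test, and 9 of 21 had an unadjusted p under 0.05, against 1369 of all 14229.

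Neural genes had the same direction. Of 9 tested members 7 read below TKO in both libraries and 0 above (medians −0.78 and −0.82), and elsewhere than on those chromosomes 5 of 6 and 0. Over all genes tested 43.4% read below TKO in both libraries and 32.2% above. The neural factor genes Sox1 (2.68 RPKM in TKO, 0.667 and 0.319 RPKM with Dnmt3a1), Sox3 (7.64, then 2.27 and 2.25 RPKM) and Pax6 (3.02, then 0.779 and 0.729 RPKM) were all past 2-fold in both libraries. The neuronal tubulin gene Tubb3 was not, at 41.8 RPKM in TKO and 41.6 and 43.8 RPKM with Dnmt3a1. In the trophoblast list, for the placental lineage, 10 of 16 members read below TKO in both libraries and 1 above (43.4% and 32.2% of all genes). Plet1, a surface protein of trophoblast progenitors, read 11.5 RPKM in TKO and 3.19 and 3.73 RPKM with Dnmt3a1, and the factor Gata3 3.17 RPKM and 0.976 and 0.785 RPKM. Elsewhere than on the 4 chromosomes named, 7 of 13 trophoblast members lay below TKO in both libraries, with medians of −0.50 and −0.02. Primitive streak and mesoderm genes showed no common direction, with 3 of 12 above and 4 below. Of the 28 Hox genes tested 5 read above TKO in both libraries and 17 below (32.2% and 43.4% of all genes), with medians of −0.10 and −0.18.

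Pluripotency genes split. Of 26 naive pluripotency genes 13 read above TKO in both libraries and 7 below (medians 0.16 and 0.15), against 32.2% and 43.4% of all genes. Elsewhere than on chromosomes 6, 8, 12 and 16 it was 12 of 19 and 3 (0.29 and 0.27). Tdh, the threonine dehydrogenase that ES cells depend on, read 34.8 RPKM in TKO and 111 and 79.5 RPKM with Dnmt3a1. Tbx3 read 11.6 RPKM in TKO and 23.8 and 24.9 RPKM, and Tdgf1, the coreceptor of Nodal, 269 RPKM and 556 and 667 RPKM. WT held 108, 29.8 and 453 RPKM of these 3, and Tdgf1 stood above WT in both libraries. TKO+Dnmt3a2 also read above the same TKO library, at 85.8 and 74.45 RPKM of Tdh, 20.6 and 16.3 RPKM of Tbx3, and 342 and 588 RPKM of Tdgf1. Dppa3, a factor of oocytes and naive cells that hinders the Dnmt1 cofactor Uhrf1, read 118 RPKM in TKO, 37.2 and 39.0 RPKM with Dnmt3a1 and 11.7 RPKM in WT, and lies on chromosome 6. In the formative and primed epiblast list 5 of 20 read above TKO in both libraries and 9 below, the latter near the 43.4% of all genes below. Above TKO with Otx2 stood Lef1, a nuclear effector of Wnt signals, at 2.13 RPKM in TKO and 7.13 and 10.3 RPKM, and Fgf15, at 1.22 RPKM and 3.30 and 3.36 RPKM. Among the members below TKO, Sox3 read 7.64 RPKM in TKO and 2.27 and 2.25 RPKM with Dnmt3a1. Foxd3 read 6.06 RPKM and 3.67 and 2.68 RPKM, and Sall2 3.26 RPKM and 1.52 and 1.30 RPKM. The list's median was 0.00 and −0.20 in replicates 1 and 2 and turned positive with quantile normalization (0.06) and median ratio scaling (0.02). In the Nodal pathway 8 of 18 members read above TKO in both libraries and 6 below (32.2% and 43.4% of all genes). The ligand gene Nodal read 20.5 RPKM in TKO and 34.8 and 24.3 RPKM with Dnmt3a1. The receptor gene Acvr1b read 9.30 RPKM and 14.0 and 15.3 RPKM, and the nuclear partner Foxh1 34.9 RPKM and 24.3 and 18.1 RPKM.

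Germline genes, whose promoters are usually methylated in somatic cells, did not share a direction. Of 26 germ cell genes, many of genome defence, 7 read above TKO in both libraries and 5 below (32.2% and 43.4% of all genes). Their medians were −0.24 in replicate 1 and 0.35 in replicate 2. Dazl, an RNA-binding protein of germ cells, read 42.2 RPKM in TKO, 7.30 and 15.9 RPKM with Dnmt3a1 and 8.73 RPKM in WT. Mael, of the piRNA pathway, stood on the other side, at 3.17 RPKM in TKO, 7.66 and 25.9 RPKM with Dnmt3a1 and 11.9 RPKM in WT. Asz1, of the same pathway, read 2.95 RPKM in TKO and 0.332 and 1.93 RPKM, the first far from TKO and the second near it. Tex19.1, which restrains retrotransposons, read 99.8 RPKM in TKO and 41.6 and 89.9 RPKM. In Dazl, Mael, Asz1 and Tex19.1 the replicates were more than 2-fold apart. Of the Rhox, Xlr and Mage families on the X chromosome 16 of 22 members read below TKO in both libraries and 0 above (43.4% and 32.2% of all genes). They stood lower in replicate 1 (median −1.12) than in replicate 2 (−0.25). Rhox6, a homeobox gene of the placenta, read 17.0 RPKM in TKO and 6.62 and 6.35 RPKM with Dnmt3a1, and Rhox9 12.8 RPKM and 5.49 and 3.93 RPKM. Xlr5a read 3.15 RPKM in TKO and 0.377 and 1.59 RPKM, and Magea3 1.10 RPKM and 0.040 and 0.244 RPKM. Magea3 reached 1 RPKM in TKO alone, so that the filter fixed its side and it adds nothing to the count. WT held 1.73 RPKM of Rhox6, 1.66 RPKM of Rhox9 and 0 of Xlr5a and Magea3. Members of these families share reads with close copies, so that single values are uncertain.

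Imprinted genes, expressed from 1 parental allele, read below TKO more often than above it, as did all genes tested (43.4% below and 32.2% above). Of 20 maternally expressed genes 13 read below TKO in both libraries and 5 above. H19, a noncoding RNA, read 246 RPKM in TKO, 89.8 and 109 RPKM with Dnmt3a1 and 29.8 RPKM in WT, and Grb10, a growth-restraining adaptor, 31.4, 13.5 and 14.0, and 6.38 RPKM. Rian, a noncoding RNA of the Dlk1-Dio3 cluster on chromosome 12, read 64.8 RPKM in TKO and 32.9 and 26.2 RPKM. Elsewhere than on chromosomes 6, 8, 12 and 16 the split was 8 of 15 below and 5 above, with medians of −0.07 and −0.06 in place of −0.34 and −0.35 for the whole list. Of 25 paternally expressed genes 14 read below TKO in both libraries and 7 above, and elsewhere than on these chromosomes 10 of 21 and 7, with medians of 0.01 and −0.22. Mest, on chromosome 6, read 91.4 RPKM in TKO, 32.8 and 40.1 RPKM with Dnmt3a1 and 37.6 RPKM in WT, and Peg3, on chromosome 7, 63.7, 36.0 and 24.4, and 14.1 RPKM. Nnat, a proteolipid of the nervous system, went the other way and past WT, at 5.09 RPKM in TKO, 18.2 and 19.2 RPKM with Dnmt3a1 and 9.39 RPKM in WT. TKO+Dnmt3a2 also stood above TKO and WT, at 15.6 and 17.7 RPKM of Nnat.

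**Figure D4:**
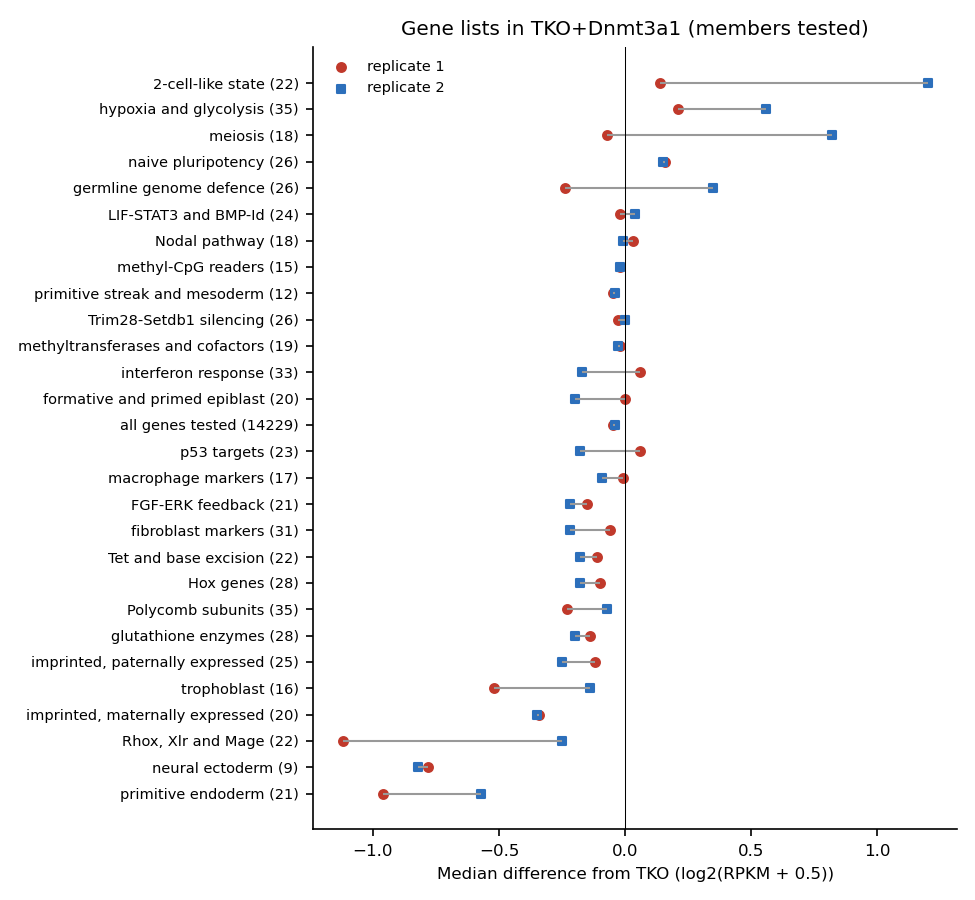
For each gene list (y axis, members tested in brackets) the x axis gives the median difference of its members from TKO in log2(RPKM + 0.5), with a red circle for TKO+Dnmt3a1 replicate 1 and a blue square for replicate 2 joined by a line. The primitive endoderm list lies at −0.96 and −0.57 and the neural ectoderm list at −0.78 and −0.82, and the 2-cell-like, meiosis, germline and Rhox, Xlr and Mage lists are the ones whose libraries lie furthest apart.

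The lists that stood apart between the replicates did so in 1 direction. Of the 349 genes in which the libraries differed by 1 or more, replicate 2 was the higher in 230 and replicate 1 in 119, and 131 (37.5%) lie on chromosomes 7, 11 and 13, the 3 with the most such genes, which hold 20.3% of the genes tested. Replicate 2 was the higher in 20 of 22 genes of the 2-cell-like state, in 15 of 18 meiosis genes, in 20 of 26 germline genes, in 17 of 22 Rhox, Xlr and Mage genes and in 28 of 35 hypoxia and glycolysis genes, against 48.3% of all genes. In the 2-cell-like state, which a few cells of an ES culture enter, 14 of 22 members read above TKO in both libraries and 3 below (32.2% and 43.4% of all genes). Its medians were 0.14 in replicate 1 and 1.20 in replicate 2. Zscan4d, of its marker family, read 0.478 RPKM in TKO and 0.799 and 3.86 RPKM with Dnmt3a1, and Tcstv1 3.44 RPKM and 1.74 and 10.8 RPKM, on either side of TKO. Of the meiosis genes, Sycp3, of the synaptonemal complex, read 3.52 RPKM in TKO and 4.88 and 9.52 RPKM, and Taf7l 0.949 RPKM and 0.689 and 6.16 RPKM. A median over the 2 libraries thus stands for neither of them in these lists.

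Genes of hypoxia and glycolysis stood above TKO in both libraries for 24 of 35 members and below for 4, against 32.2% of all genes above and 43.4% below. The list medians were 0.21 and 0.56, and no member was past 2-fold in both. Eno1, a glycolytic enolase, read 669 RPKM in TKO and 1033 and 1004 RPKM with Dnmt3a1, and Pgk1, a glycolytic kinase, 223 RPKM and 337 and 366 RPKM. Bnip3, a mitophagy receptor and target of the hypoxia factor, read 85.3 RPKM and 136 and 164 RPKM. The TKO+Dnmt3a2 libraries lay on either side of TKO, at 660 and 873 RPKM of Eno1, 157 and 330 RPKM of Pgk1, and 42.1 and 168 RPKM of Bnip3. Libraries of 1 genotype can thus differ in Pgk1 and Bnip3 by more than TKO+Dnmt3a1 did from TKO, though in Eno1 they differed by less. The glucose transporter gene Slc2a1 parted the TKO+Dnmt3a1 libraries, at 268 RPKM in TKO and 262 and 617 RPKM with Dnmt3a1. Elsewhere than on chromosomes 6, 8, 12 and 16, 20 of 25 members were above TKO in both libraries and 0 below. Other lists stayed near 0. Medians for the methyltransferases and cofactors were −0.02 and −0.03 over 19 genes, for the methyl-CpG readers −0.02 and −0.02 over 15, for the Trim28-Setdb1 silencing genes −0.03 and 0.00 over 26, and for the LIF-STAT3 and BMP-Id genes −0.02 and 0.04 over 24. Of the 22 genes of Tet oxidation and base excision 12 lay below TKO in both libraries and 5 above, with Gadd45a, a stress protein tied to demethylation on chromosome 6, at 78.9 RPKM in TKO and 44.6 and 50.4 RPKM. Of 35 Polycomb subunits 22 lay below and 8 above (medians −0.23 and −0.07), of 21 genes of FGF-ERK feedback 12 and 2, and of 28 glutathione enzymes 15 and 5. Elsewhere than on chromosomes 6, 8, 12 and 16 the Tet and base excision medians were −0.01 and −0.08, those of the Polycomb subunits −0.18 and −0.05 and those of FGF-ERK feedback −0.13 and −0.11. The interferon list split into 13 of 33 above and 12 below, and the p53 targets into 5 of 23 above and 10 below. For all these lists the shares over all genes are 32.2% above and 43.4% below, and the p53 targets below lie near that share. Among the p53 targets Pmaip1, which promotes apoptosis, read 26.0 RPKM in TKO and 51.3 and 44.9 RPKM with Dnmt3a1. No member of any list was called.

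Between the long and the short isoform 1 gene passed the test. Against TKO+Dnmt3a2, limma called 1 gene higher in TKO+Dnmt3a1 (0.00703% of those tested) and 0 lower (0.0%), with 611 at an unadjusted p under 0.05. The called gene was Alg13, which read 59.5 and 49.0 RPKM with Dnmt3a1 and 6.74 and 7.42 RPKM with Dnmt3a2 (log2 difference 2.85 ± 0.16, SE; adjusted p = 0.0444). With Dnmt3a2 it read near the TKO level of 8.78 RPKM. In TKO with Dnmt3b1 put back Alg13 read 47.3 RPKM, near the level with Dnmt3a1, so that the high level is not particular to Dnmt3a1. The call was lost with a pseudocount of 0.1 (limma adjusted p = 0.054), with quantile normalization (0.0624), and when any of the 4 libraries of either line was left out (0.274 to 0.916), where a lone library is assumed to vary like the other line. Over all alternatives run the adjusted p ranged from 0.00324 to 0.916. Otx2 stood at 0.950 and 0.954 RPKM with Dnmt3a2 against 7.06 and 7.14 RPKM with Dnmt3a1 (2.39 ± 0.19, SE; limma adjusted p = 0.120). On the other side, Rhox6 read 32.4 and 30.3 RPKM with Dnmt3a2, above the 17.0 RPKM of TKO, and 6.62 and 6.35 RPKM with Dnmt3a1 (−2.19 ± 0.17, SE; limma adjusted p = 0.120). Rhox9 read 22.0 and 17.8 RPKM with Dnmt3a2 and 5.49 and 3.93 RPKM with Dnmt3a1. H19 was at 313 and 342 RPKM against 89.8 and 109 RPKM, and Mir675 lies within H19 and shares its reads. In these genes the parent lay between the isoforms. All 4 libraries were 1 or more apart in 9 genes higher with Dnmt3a1 (0.0633%) and 16 genes lower (0.112%). The transcript of Dnmt3a itself was at 21.8 and 11.1 RPKM in TKO+Dnmt3a2, so that isoform and level cannot be told apart.

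The same enzyme in cells that keep Dnmt1 gave a reading from other libraries. DKO+Dnmt3a1 and DKO had 1 library each, so that their difference has no replicate check, and 419 genes were higher by 1 or more (2.94%) and 880 lower (6.18%). Of the 165 genes past 2-fold below TKO in both TKO+Dnmt3a1 libraries, 118 were lower in DKO+Dnmt3a1 than in DKO (71.5%, against 51.8% of all genes), 40 of them by 1 or more (24.2%, against 6.18%). Without the genes of chromosomes 6, 8, 12 and 16 it was 66 of 97 (68.0%). Of the 106 genes past 2-fold above TKO, 40 were higher in DKO+Dnmt3a1 (37.7%, against 47.9% of all genes), 6 of them by 1 or more (5.66%), and 18 were lower by 1 or more (17.0%). These counts were chosen with the values known and describe 4 groups of which 3 have 1 library. Dppa3, Dazl, H19 and Vpreb1 stood lower in both families: in DKO and DKO+Dnmt3a1, Dppa3 read 60.3 and 20.1 RPKM, Dazl 18.7 and 2.92 RPKM, H19 157 and 66.9 RPKM and Vpreb1 1.14 and 0.104 RPKM. Nnat stood higher in both, at 6.62 and 13.9 RPKM in DKO and DKO+Dnmt3a1. Otx2 and Alg13 did not: Otx2 read 13.1 RPKM in DKO and 7.65 RPKM in DKO+Dnmt3a1, and Alg13 105 and 80.3 RPKM, and the DKO parent stood above WT in both genes.

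Whether the difference made by Dnmt3a1 itself differs between the families was tested in the same fit, and limma called 0 genes higher (0.0%) and 0 lower (0.0%), with 1337 at an unadjusted p under 0.05 and a smallest adjusted p of 0.262. Among the genes with the lowest adjusted p were Otx2 (difference of differences 3.54 ± 0.36, SE) and Alg13 (2.94 ± 0.30, SE), both at a limma adjusted p of 0.262. By size the rule named Cox7b2 and Ndufa4l2. Ndufa4l2, a hypoxia-induced subunit that restrains mitochondrial respiration, read 10.9 RPKM in TKO and 41.1 and 44.1 RPKM with Dnmt3a1, but 42.9 RPKM in DKO and 8.49 RPKM with Dnmt3a1 (difference of differences 4.19 ± 1.11, SE; limma adjusted p = 0.478). Its level also parted the TKO+Dnmt3a2 libraries, at 8.97 and 35.9 RPKM. Cox7b2, a testis form of a respiratory chain subunit, read 3.39 RPKM in TKO and 9.84 and 5.68 RPKM, but 12.3 RPKM in DKO and 0.883 RPKM in DKO+Dnmt3a1 (4.25 ± 0.63, SE; limma adjusted p = 0.427). The hypoxia and glycolysis list, which stood above TKO, was lower in DKO+Dnmt3a1 for 33 of 35 members and higher for 2 (median −0.73). The 2-cell-like list was higher there for 22 of 22 (median 1.32), and the list of Rhox, Xlr and Mage families lower for 22 of 22 (median −2.16). The fibroblast and macrophage markers were also lower in DKO+Dnmt3a1 than in DKO, for 25 of 31 and 16 of 17 members, and their part in these differences was not tested. Small RNA genes completed the named set with few reads: Mir19b-1 had 0 reads in TKO, 2.0 and 4.0 with Dnmt3a1, 15.0 in DKO and 1.0 in DKO+Dnmt3a1. Mir8112 had about 20.7, 7.9 and 7.9, and then 1.0 and 15.8 reads, Mir3069 2.0, 1.0 and 2.0, and then 0 and 6.0 reads. Scarna2 was listed at 1.27 RPKM in TKO, 0 in both TKO+Dnmt3a1 libraries and DKO, and 1.32 RPKM in DKO+Dnmt3a1.

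**Figure D5:**
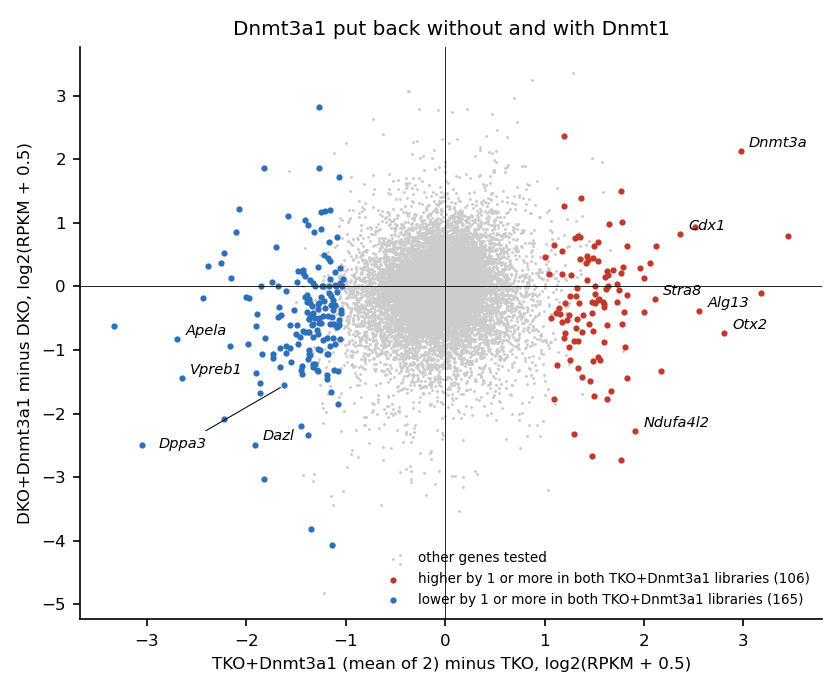
Each point is 1 gene tested, with the difference of the mean of both TKO+Dnmt3a1 libraries from TKO on the x axis and that of DKO+Dnmt3a1 from DKO on the y axis, both in log2(RPKM + 0.5) and with no library in common. Of the 165 blue genes 118 lie below 0 on the y axis, and of the 106 red genes 40 lie above it, with Ndufa4l2 at the lower right.

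Against WT, TKO+Dnmt3a1 still carried differences that its parent had. Limma called 24 genes higher (0.169%) and 7 lower (0.0492%), with 1962 at an unadjusted p under 0.05, and leaving out any of the 4 replicated libraries lost every call. Ndufs5, a subunit of respiratory complex I, read 0.903 RPKM in WT and 32.1 and 32.3 RPKM in TKO+Dnmt3a1 (log2 difference 4.54 ± 0.20, SE; limma adjusted p = 0.0124), next to 28.4 RPKM in TKO. Ube2l6, a conjugating enzyme of the ubiquitin-like ISG15, read 1.14 RPKM in WT and 30.5 and 39.0 RPKM, next to 27.9 RPKM in TKO. In both genes TKO+Dnmt3a1 read close to its parent. The other large differences were those of the apolipoprotein gene Apoa2 (0.295 RPKM in WT, 9.68 and 9.13 RPKM with Dnmt3a1 and 6.41 RPKM in TKO), the muscle protein gene Smtnl1 (0.451, then 12.6 and 7.46, and 13.9 RPKM) and the neural secreted protein gene Nell2 (0.309, then 7.04 and 5.93, and 4.62 RPKM). Of the 7 lower genes the targeted Dnmt1 was 1, and 5 lie on chromosome 8. There Zfp42, a naive pluripotency marker, read 222 RPKM in WT and 47.6 and 36.6 RPKM in TKO+Dnmt3a1, with 47.3 RPKM in TKO. Its neighbours Triml1 and Triml2 read 67.5 and 111 RPKM in WT. With Dnmt3a1 Triml1 read 7.18 and 5.06 RPKM and Triml2 13.8 and 10.2 RPKM, next to 7.40 and 17.7 RPKM in TKO. Apela was the exception among the lower genes named, since TKO had kept its WT level.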

How the data were processed

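RNA of ES cells was purified with RNeasy and polyA-selected, and libraries were made with TruSeq v2, a kit that keeps no strand, per the labels' protocols, and reads of overlapping or antisense genes cannot be separated. The authors deposited a table of RPKM for 24016 genes. The submitters' processing notes name bcl2fastq 1.8.4, STAR 2.4.0 and build mm9, and the counting tool and gene lengths are not given in the sources used here. Depth was estimated from the spacing of RPKM in transcripts of up to 400 nt, where 86.4% to 91.5% of values came out as whole reads of up to 5 within 0.05. The reads quoted for small RNAs come from the same step.

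Values were analysed as log2(RPKM + 0.5) in R 4.3.3 with limma 3.58.1, using eBayes with its trend option, after the code was tested on simulated data. All 11 libraries entered, fitted as 9 groups. Only TKO+Dnmt3a1 and TKO+Dnmt3a2 have replicates, which gives 2 residual degrees of freedom (prior 3.7), and every lone library takes its spread from them. Calls needed a p below 0.05 after Benjamini-Hochberg adjustment across all 14229 genes. Named were called genes, filled up with the largest differences shared by both libraries (10 in each direction against TKO, 3 elsewhere), up to 4 members of each of 27 lists, and the targeted genes; other list members were chosen after their values were seen, and 2 genes the rule names are not reported here. The comparison, its lists and this rule were chosen with earlier results of these data known. Chromosomes (23960 of 24016 genes) and promoters come from RefSeq on GRCm38.p6, and other coordinates were not used.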

Additional observations from a re-analysis of the deposited data

How the results depend on the processing

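Against TKO, limma's count of 0 became 30 (all lower) without the low-value filter and 3 with the filter at a mean of 1 RPKM, and stayed 0 under the other settings tried apart from the block below. Against TKO+Dnmt3a2 the count of 1 became 3 with the filter at a mean of 1 RPKM and 0 with a pseudocount of 0.1, no filter, quantile normalization, median ratio scaling, no trend, or the 6 TKO family libraries alone. Between the families the count of 0 became 57 without the filter. Against WT the count of 31 became 17 with a pseudocount of 0.1, 99 with the filter at a mean of 1 RPKM, 13 with quantile normalization, 8 with median ratio scaling, 3 without a trend and 60 with chromosome medians removed. Genes past 2-fold in both libraries, 271 in all, were 498 with a pseudocount of 0.1, 153 with 1 and 177 without chromosomes 6, 8, 11, 12, 16 and Y (fewer genes tested). Leaving out 1 replicate gave 0 to 0 calls against TKO+Dnmt3a2 and WT, and 610 to 733 genes past 2-fold, since 1 library then decides.

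Replicate numbers did not pair the libraries (deviations of same-numbered libraries correlated at 0.0859 over 2 pairs). With the replicate number as a block the calls were 7 against TKO (Alg13, Otx2, Stra8 and Dnmt3a among the 4 higher, Igll1 and Apela among the 3 lower), 6 against TKO+Dnmt3a2 and 152 against WT. Of the list members, 3 changed sign under 1 setting each: Mbd4 to 0.07 and Hand2 to 0.19 with chromosome medians removed, and Zbtb4 to 0.04 with the replicate block; the chromosome settings subtract the medians given above, and the cause for Zbtb4 was not tested. With 1 TKO library no setting measures its own spread, and genes near 1 RPKM rest on few reads.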
